A study of Mus musculus with 24 samples.

Results

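Genes of interleukin-6 (IL-6) and interleukin-1 (IL-1) family signalling were followed through ureter obstruction and its reversal in the mouse kidney. The 9 genes were Il6ra, Osmr, Il6st, Stat3, Socs3, Il1b, Il1rn, Il1r1 and Il34. They were chosen by gene symbol, and all 9 had a row among the 14785 genes of the deposited table. The samples were kidneys of C57/BL6 mice labelled as 8 weeks old; the design text gives male animals of 8 to 9 weeks at the start, and the series title calls the tissue cortical. The groups were sham surgery (sham), ligation of 1 ureter for 2 days (UUO2) or 7 days (UUO7), and reversal, in which the ureter was reimplanted after 7 days and the kidney recovered for 1, 2 or 4 weeks (R1W, R2W and R4W). Each group held 4 animals, taken from 10 per group in the study. No group carried a transgene or a drug treatment per the labels, and sham surgery was the only control. Whole tissue was sequenced from polyA-selected RNA, so every value is a mixture of tubule, vessel, connective tissue and immune cells. In such bulk samples a change in the number of cells of a type and a change in RNA per cell cannot be told apart.

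Per the annotation (GENCODE M21 on GRCm38, the assembly of mm10), all 9 are protein-coding genes. They lie at chr3:89864059-89913196 (Il6ra), chr15:6813577-6874969 (Osmr), chr13:112464070-112510086 (Il6st), chr11:100885098-100939540 (Stat3), chr11:117966079-117970047 (Socs3), chr2:129364570-129371139 (Il1b), chr2:24336853-24351494 (Il1rn), chr1:40225080-40317257 (Il1r1) and chr8:110741829-110805924 (Il34).

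As background, cytokines of the IL-6 family share the signalling receptor gp130, which Il6st encodes, and each adds a receptor of its own: Il6ra encodes the IL-6 receptor and Osmr the oncostatin M receptor. Ligand binding activates JAK kinases and the transcription factor STAT3, and STAT3 induces Socs3, whose product inhibits the same receptor complex. IL-1 beta, the product of Il1b, is made largely by myeloid cells as a precursor that caspase-1 cleaves. It signals through the receptor encoded by Il1r1, and Il1rn encodes the antagonist that occupies this receptor without signalling. Il34 encodes interleukin-34, which belongs to neither family by structure and is a ligand of the macrophage receptor CSF1R that tubular epithelium makes in injured kidney.

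Sequence upstream of the start site is shown for Socs3, the inhibitor that STAT3 induces, and for Il1rn and Il1b, the antagonist and the agonist whose time courses differed at 2 days. The windows are RefSeq entries on GRCm38.p6, read on the gene's strand, with bases that lie in an exon of any GENCODE M21 transcript of the gene left out. The Socs3 stretch is chr11:117969452-117969616 (minus strand), that of Il1rn is chr2:24336610-24336852 (plus strand, the first of 3 listed starts) and that of Il1b is chr2:129371140-129371389 (minus strand). Capitals mark a match to the STAT palindrome TTCNNNGAA in Socs3 and to the AP-1 motif TGANTCA in Il1rn.
Socs3: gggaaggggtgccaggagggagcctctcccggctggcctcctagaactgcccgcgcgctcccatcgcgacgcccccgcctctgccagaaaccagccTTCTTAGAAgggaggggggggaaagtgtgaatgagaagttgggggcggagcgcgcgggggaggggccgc
Il1rn: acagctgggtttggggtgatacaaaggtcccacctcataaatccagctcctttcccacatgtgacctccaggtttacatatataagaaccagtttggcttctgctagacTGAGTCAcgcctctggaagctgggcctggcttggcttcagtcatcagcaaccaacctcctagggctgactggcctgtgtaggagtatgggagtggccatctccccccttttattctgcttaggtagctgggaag
Il1b: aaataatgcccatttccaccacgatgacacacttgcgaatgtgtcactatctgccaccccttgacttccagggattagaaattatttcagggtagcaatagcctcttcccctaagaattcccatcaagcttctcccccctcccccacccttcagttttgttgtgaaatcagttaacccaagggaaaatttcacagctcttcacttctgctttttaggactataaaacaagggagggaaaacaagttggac
Entries were matched for 8 of the 9 genes, giving 11 windows of 250 bases, and each was searched on both strands for TTCNNNGAA, for TGANTCA and for the NF-kB consensus. The STAT palindrome was found in 1 of the 11 windows, starting 154 bases before the Socs3 start, and in 7.02% of 32851 RefSeq windows of the same length. The AP-1 motif was found in 1 window, 141 bases before the first Il1rn start, against 6.75% of all windows. The NF-kB consensus was found in 1 window, 232 bases before the second Il1r1 start, against 7.25% of all windows. The matches overlapped no other match, and they describe letters in these windows only. The sequences shown were picked with the values and the matches known. Il34 had no entry.

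Several features of the libraries bear on the values. R4W replicate 2 is titled 4 weeks but carries a treatment label of 2 weeks; it was grouped by title. UUO2 replicate 2 stood apart from the other UUO2 libraries with lower levels of Osmr, Stat3, Socs3 and Il34, and its 4 injured tubule markers (Havcr1, Lcn2, Vcam1 and Krt20) summed to 671 FPKM against 918 to 1123 in the other 3. Sham replicate 2 had the highest Socs3 and Il1rn of its group, and its sum over 5 adipose markers was 291 FPKM against 40.4 to 48.5 in the other 3. In R4W the same adipose sum was 1644 FPKM in replicate 1 and 402 in replicate 3, against 62.5 and 69.8 in replicates 2 and 4. Without R4W replicate 1 or without replicate 3, 9 of the 9 genes were still called higher than sham, and 4 in place of 6 were called lower than in UUO7. The whole UUO2 group also differed as libraries. Whole-fragment steps in the low values could be read in the 20 other libraries and in 0 of the 4 UUO2 libraries. With the unit taken as FPKM, they gave an implied depth of 25180000 to 35270000 fragments in those 20. The level of mt-Rnr1 was 2343 to 2832 FPKM in UUO2 against 342 to 709 FPKM elsewhere. The design text speaks of 20 libraries multiplexed over 3 lanes, and the 4 UUO2 libraries carry sample codes of another form. A difference between UUO2 and another group cannot be told apart from this library difference. The level of the median gene also moved: on log2(FPKM + 1), the scale of all differences below, it lay 0.09 above sham in UUO2, 0.42 in UUO7, 0.37 in R1W, 0.32 in R2W and 0.30 in R4W. Each difference was therefore recomputed after every library was rescaled to the same median ratio.

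All 9 genes were higher than sham at 7 days of obstruction and in all 3 recovery groups, with no overlap between libraries, and at 2 days 7 of 9 were called higher, all but Il6ra and Il1b. Of all genes 56.9%, 53.4%, 50.6% and 52.9% were higher than sham without overlap in UUO7, R1W, R2W and R4W. After rescaling, Il6st overlapped sham in R1W and R2W. A call is a limma adjusted p (Benjamini-Hochberg over all genes) under 0.05. Such calls were common among all genes: 32.3% were called higher in UUO2, 60.1% in UUO7, 59.4% in R1W, 56.1% in R2W and 54.8% in R4W, each against sham. After rescaling these shares were 25.3%, 36.5%, 33.7%, 31.1% and 28.9%, and 6, 9, 8, 9 and 9 of the 9 genes were called higher. The median difference over the 9 genes was 1.29 in UUO2 and 1.63 in UUO7, against 0.09 and 0.42 over all genes. After rescaling it was 1.16 and 1.34, against -0.01 and 0.01 over all genes. The comparisons with sham share the same 4 sham libraries and are not independent of each other. The lowest gene mean over the 24 libraries was 1, so genes averaging under 1 FPKM in sham have a row only because other groups were higher. Among the 9 genes this holds for Il6ra, Il1b and Il1rn, whose place above sham is partly fixed in advance.

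**Figure D1:**
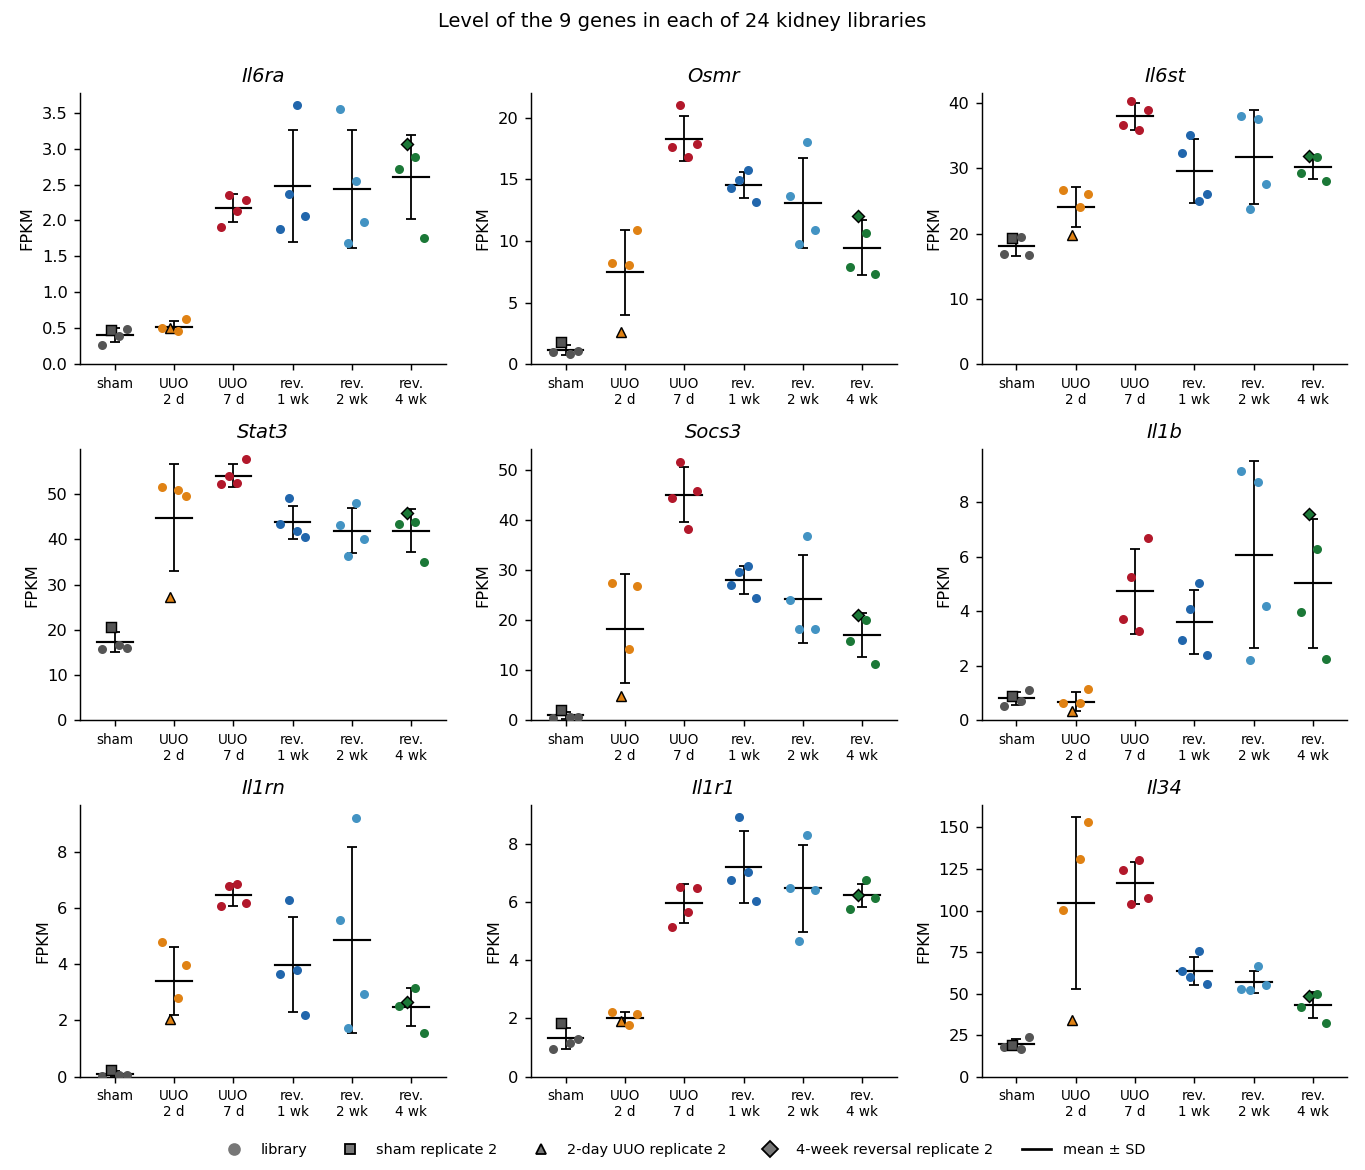
Level of each of the 9 genes (vertical axis, FPKM from 0) in every library of the 6 groups (horizontal axis), with the group mean and SD as a black line and bar. Squares, triangles and diamonds mark sham replicate 2, 2-day obstruction (UUO) replicate 2 and 4-week reversal replicate 2. Osmr, Stat3, Socs3, Il1rn and Il34 were already high at 2 days, whereas Il6ra, Il1b and Il1r1 were at or near the sham level there and high from 7 days on.

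Among the receptors, Osmr had the largest change. It was 0.98, 1.80, 0.86 and 1.05 FPKM in the sham libraries, replicates 1 to 4 in this and all later lists. It was 8.21, 2.65, 8.04 and 10.9 FPKM in UUO2 and 17.6, 21.01, 16.8 and 17.9 FPKM in UUO7. No UUO2 library overlapped sham and no UUO7 library overlapped UUO2, with UUO2 replicate 2 nearest to sham. The group mean was 6.36-fold that of sham at 2 days and 15.6-fold at 7 days, or 5.84-fold and 11.3-fold after rescaling. The difference from sham was 1.86 (SE 0.25, limma adjusted p = 5.5e-06) in UUO2 and 3.17 (SE 0.25, limma adjusted p = 8.8e-10) in UUO7. Without UUO2 replicate 2 the 2-day difference was 2.22.

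Il6ra, the receptor subunit specific to IL-6, followed another course. It was 0.27, 0.47, 0.39 and 0.49 FPKM in sham and 0.50, 0.50, 0.46 and 0.63 FPKM in UUO2. These ranges overlapped, and the difference of 0.12 (SE 0.15) had a limma adjusted p of 0.557. In UUO7 it was 1.91, 2.36, 2.13 and 2.29 FPKM, above every sham and UUO2 library, with a difference of 1.18 (SE 0.15, limma adjusted p = 5.9e-07) from sham and 1.06 (SE 0.15, limma adjusted p = 4.72e-06) from UUO2. The recovery libraries lay between 1.68 and 3.61 FPKM, and the UUO7 range fell inside that of R1W and of R2W. R4W, at 2.72, 3.06, 2.88 and 1.75 FPKM, had the highest group mean, 2.60 ± 0.585 (SD, n = 4), but it overlapped UUO7, R1W and R2W. Exons of Il6ra overlap the antisense gene Gm42809, and whether counting used the strand is not given in the sources used here.

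Il6st, the shared gp130 subunit, was the most abundant of the 3 receptor genes per length and had the smallest differences from sham of the 3 from 7 days on. It was 16.9, 19.3, 19.5 and 16.7 FPKM in sham, 26.6, 19.8, 24.1 and 26.0 in UUO2 and 36.6, 40.4, 35.8 and 39.0 in UUO7. The UUO7 libraries lay above all others of these 3 groups, and UUO2 replicate 2 was within 1 FPKM of the highest sham library. The difference from sham was 0.39 (SE 0.13, limma adjusted p = 0.0175) in UUO2 and 1.03 (SE 0.13, limma adjusted p = 3.86e-07) in UUO7. After rescaling, the UUO7 difference was 0.56 (limma adjusted p = 0.000108), while that of UUO2 lost its call at 0.26 (limma adjusted p = 0.0519, range over 16 alternatives 0.00518 to 0.0582). The 2-day call was also lost without sham replicate 4, UUO2 replicate 1 or UUO2 replicate 4, at differences of 0.35, 0.34 and 0.35 and limma adjusted p of 0.0504, 0.0582 and 0.0533. The R1W difference of 0.67 also lost its call on rescaling, at 0.24 (limma adjusted p = 0.0578; 7.87e-05 to 0.0578 over 16 alternatives).

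The receptor subunits therefore stood in different proportions over time, a measure within each library that the rescaling leaves as it is and on which no test was run. The ratio of Osmr to Il6st was 0.0646 ± 0.0206 (SD, n = 4) in sham, 0.299 ± 0.120 in UUO2, 0.482 ± 0.0272 in UUO7 and 0.311 ± 0.0552 in R4W. The ratio of Osmr to Il6ra was 2.14 to 3.83 in sham, and 16.4, 5.30, 17.5 and 17.3 in UUO2. In 3 of the 4 UUO2 libraries it was above every library of the other groups, and UUO2 replicate 2 lay inside the range of the recovery groups. By UUO7 it was 7.80 to 9.21, and by R4W, at 2.89 to 4.20, it overlapped sham.

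**Figure D2:**
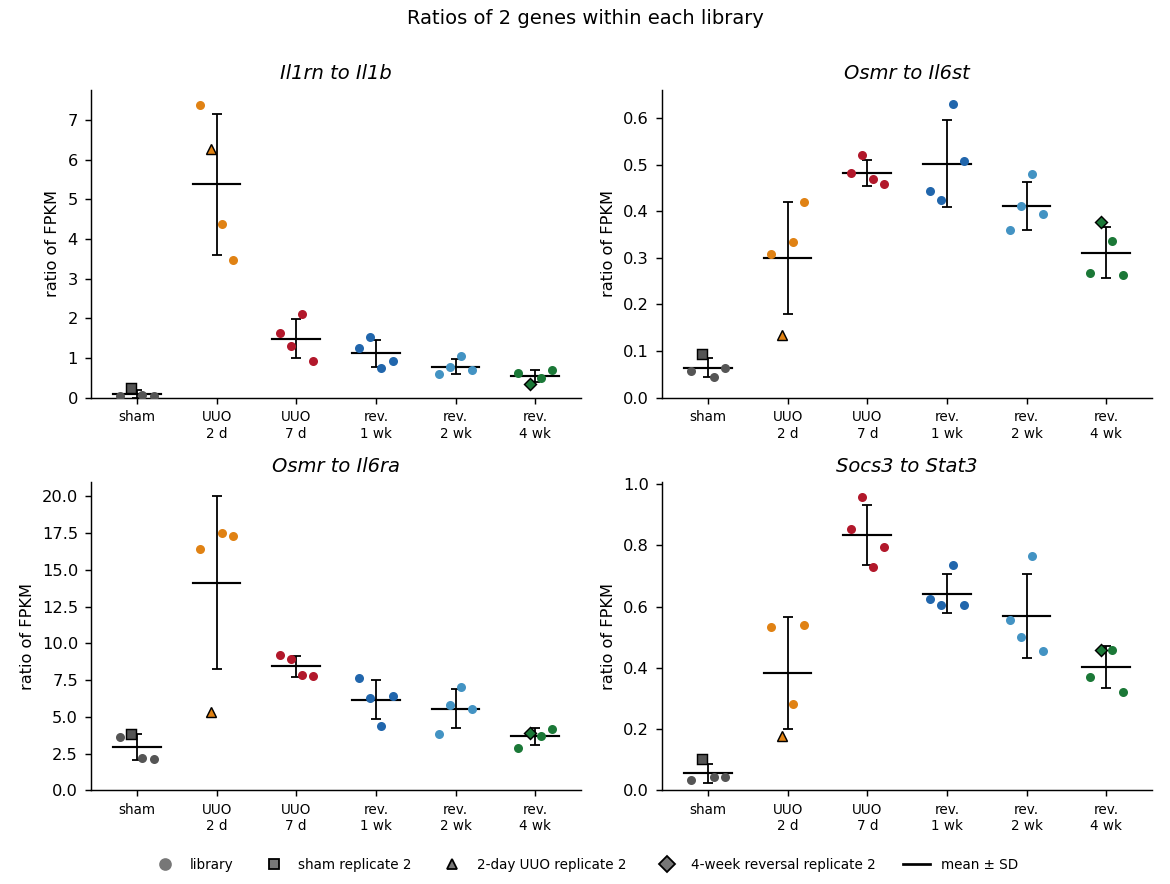
Ratio of the FPKM values of 2 genes, for 4 pairs of genes (vertical axes, from 0), in every library of the 6 groups, with group means and SDs; markers are as in the plot of levels by group. Il1rn to Il1b and Osmr to Il6ra had their highest group means at 2 days of obstruction (UUO), and Socs3 to Stat3 at 7 days (0.731 to 0.959).

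Stat3, the transcription factor of the pathway, reached most of its rise within 2 days. It was 15.8, 20.7, 16.7 and 16.1 FPKM in sham, 51.5, 27.2, 50.9 and 49.6 in UUO2 and 52.2, 53.9, 52.3 and 57.8 in UUO7. All UUO2 libraries lay above sham and below UUO7, 3 of them close to UUO7 and replicate 2 nearer to sham. The difference from sham was 1.29 (SE 0.15, limma adjusted p = 7.14e-07) in UUO2 and 1.60 (SE 0.15, limma adjusted p = 5.98e-09) in UUO7. Between UUO7 and UUO2 it was 0.31 (SE 0.15) with a limma adjusted p of 0.0728, and its sign depended on the scaling: it was -0.04 after rescaling (limma adjusted p = 0.831; 0.00755 to 0.831 over 16 alternatives). Exons of Stat3 overlap Stat5a on the opposite strand.

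Socs3, the inhibitor that STAT3 induces, had the largest differences from sham of the 9 genes on log2(FPKM + 1) in all 5 comparisons with sham, an order that depends on the pseudocount: with 0.1 in place of 1, the 2-day difference was 4.25 for Il1rn and 3.94 for Socs3. It was 0.56, 2.09, 0.72 and 0.71 FPKM in sham, 27.5, 4.88, 14.3 and 26.9 in UUO2 and 44.6, 51.7, 38.3 and 45.9 in UUO7. The 3 groups did not overlap, with sham replicate 2 the highest sham library and UUO2 replicate 2 the lowest obstructed one. The difference from sham was 3.07 (SE 0.36, limma adjusted p = 7.25e-07) in UUO2 and 4.56 (SE 0.36, limma adjusted p = 6.15e-10) in UUO7. Without UUO2 replicate 2 the 2-day difference was 3.57, and without sham replicate 2 it was 3.30. The Socs3 level relative to Stat3 was 0.0355 to 0.101 in sham, 0.179 to 0.542 in UUO2, 0.731 to 0.959 in UUO7, 0.604 to 0.737 in R1W, 0.455 to 0.767 in R2W and 0.322 to 0.459 in R4W. The UUO7 ratios lay above those of sham, UUO2 and R4W and overlapped those of R1W and R2W.

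Ligands and receptors of the family were also counted. Of 11 listed ligand genes 7 had a row, and Il6, Osm, Il27 and Il31 are not analysed here. In UUO7 against sham 7 of 7 were called higher (5 after rescaling), and in UUO2 4 of 7, with the same count after rescaling. The lowest gene mean over the 24 libraries was 1. Il11, Lif and Ebi3 were under 1 FPKM in every sham library and have a row only because other groups were higher. These counts are therefore partly fixed in advance. Clcf1, encoding cardiotrophin-like cytokine, was 3.31 ± 0.543 FPKM in sham, 22.3 ± 9.88 in UUO2 and 46.1 ± 2.46 in UUO7 (SD, n = 4). Lif, encoding leukemia inhibitory factor, was 0.14 to 0.56 FPKM in sham, 0.95 to 12.4 in UUO2 with replicate 2 the lowest, and 8.46 to 11.1 in UUO7. Ebi3, a subunit of IL-27 and IL-35, was 0.323 ± 0.142, 0.605 ± 0.177 and 4.36 ± 0.885 FPKM in the same groups. Among 7 receptor genes with a row of 8 listed, Il6ra, Osmr and Il6st included, 6 were called higher in UUO7 and 1 lower, or 4 and 1 after rescaling, and in UUO2 2 were called higher and 1 lower, or 1 and 2 after rescaling. The one lower in UUO7 was Lifr, the receptor of leukemia inhibitory factor, which fell from 19.2 ± 1.21 FPKM in sham to 13.5 ± 1.33 in UUO2 and 11.2 ± 1.62 in UUO7, a difference of -0.74 (SE 0.10, limma adjusted p = 6.35e-07) in UUO7 and -1.20 after rescaling. In UUO7, 60.1% of all genes were called higher than sham and 17.8% lower, and after rescaling 36.5% in each direction. For UUO2 these shares were 32.3% and 17%, or 25.3% and 25.5% after rescaling. The ratio of Lifr to Osmr was 10.6 to 23.2 in sham, 0.560 to 0.704 in UUO7 and 1.21 to 2.01 in R4W.

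Kinases, STAT factors and inhibitors of the pathway were also counted. Of 7 JAK and STAT genes, Stat3 included, 5 were called higher in UUO7 than in sham, with a median of 0.52 against 0.42 over all genes. After rescaling 3 were called higher and 2 lower, with a median of 0.049 against 0.0078 over all genes. Tyk2, a kinase of the JAK family, rose from 5.33 ± 0.562 FPKM in sham to 8.97 ± 0.860 in UUO7. Of 9 inhibitors, Socs3 included, 9 were called higher in UUO7, 5 after rescaling. For both lists the share of all genes called higher in UUO7 was 60.1%, and after rescaling it was 36.5% in each direction. Socs1 rose from 0.495 ± 0.204 to 5.27 ± 0.878 FPKM and Socs2 from 12.4 ± 2.44 to 40.0 ± 3.01 FPKM.

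A list of 15 genes that STAT3 is known to induce in other settings had 12 called higher in UUO2 and 15 in UUO7, the same counts after rescaling, with a median difference of 2.21 and 2.81. The shares over all genes were 32.3% and 60.1%, or 25.3% and 36.5% after rescaling. The medians over all genes were 0.09 and 0.42 before rescaling. The list was chosen with earlier results of these data known. Fgg, the fibrinogen gamma chain, was 6.63 ± 0.568 FPKM in sham, 573 ± 191 in UUO2 and 112 ± 28.7 in UUO7, and between UUO7 and UUO2 8 of the 15 genes were called higher and 4 lower, or 4 and 4 after rescaling. In that comparison 52.0% of all genes were called higher and 14.7% lower, or 30.0% and 31.9% after rescaling. The 4 lower genes were Fga, Fgb, Fgg and Lrg1, an acute-phase glycoprotein gene; Fga, Fgb and Lrg1 were named after their values were seen. Timp1, a metalloproteinase inhibitor, rose from 0.838 ± 0.667 FPKM in sham through 26.9 ± 14.3 in UUO2 to 103 ± 13.1 in UUO7. Myc, a growth-promoting transcription factor, was 2.30 ± 0.857, 19.8 ± 8.03 and 29.3 ± 3.43 FPKM, and Lbp, the lipopolysaccharide-binding protein, 1.38 ± 0.592, 3.45 ± 1.15 and 19.2 ± 2.97 FPKM. In R4W against UUO7, 12 of the 15 genes were called lower and 0 higher, also after rescaling, where 30.8% of all genes were called lower and 23.2% after rescaling.

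**Figure D3:**
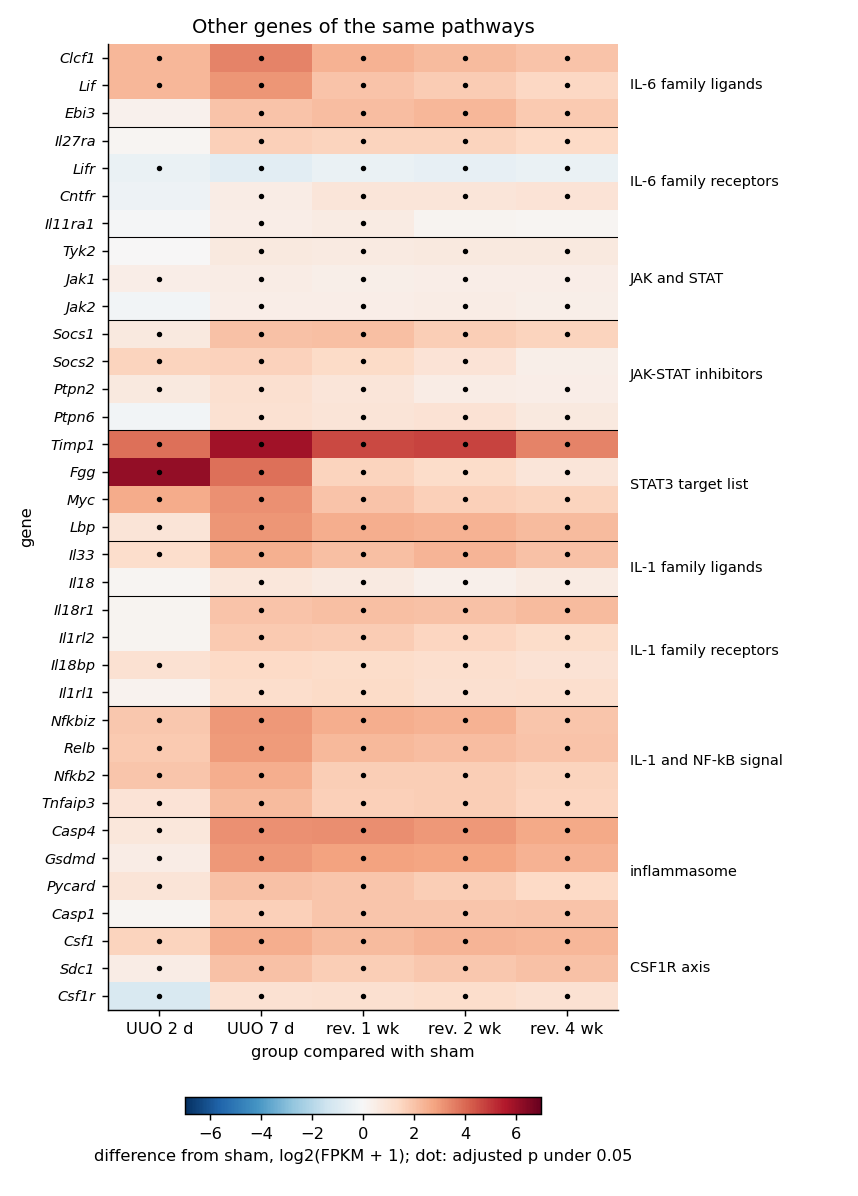
Difference from sham in log2(FPKM + 1) (colour, red higher and blue lower) for pathway genes other than the 9, in the 5 groups compared with sham (columns); a dot marks a limma adjusted p under 0.05. Rows are, for each list, 2 to 4 of the called genes with the largest absolute difference in 7-day obstruction (UUO), so strong colour in that column follows from the choice. Fgg was highest at 2 days, and Lifr was lower than sham in all 5 groups.

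In the IL-1 family the antagonist was high at 2 days and the agonist was not. Il1b was 0.54, 0.89, 0.71 and 1.10 FPKM in sham and 0.65, 0.33, 0.64 and 1.15 FPKM in UUO2. These ranges overlapped, and the difference of -0.11 (SE 0.32) had a limma adjusted p of 0.809 and an uncertain sign, being 0.00041 without UUO2 replicate 2. In UUO7 Il1b was 3.71, 5.24, 3.27 and 6.68 FPKM, above every sham and UUO2 library, with a difference of 1.63 (SE 0.32, limma adjusted p = 0.000105) from sham and 1.74 (SE 0.32, limma adjusted p = 8.28e-05) from UUO2. The sham values correspond to about 11 to 24 fragments per library and the UUO7 values to about 65 to 130. Exons of Il1b overlap the antisense gene Il1bos.

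Il1rn, which encodes the receptor antagonist, was close to 0 in sham, at 0.02, 0.23, 0.05 and 0.06 FPKM, or about 1 to 10 fragments. It was 4.80, 2.07, 2.80 and 3.99 FPKM in UUO2 and 6.08, 6.78, 6.86 and 6.19 FPKM in UUO7. The 3 groups did not overlap, with sham replicate 2 the highest sham library; because the sham level rests on so few fragments no ratio of means is given. The difference from sham was 1.98 (SE 0.30, limma adjusted p = 1.59e-05) in UUO2 and 2.78 (SE 0.30, limma adjusted p = 3.85e-08) in UUO7. The step from UUO2 to UUO7, 0.80 (SE 0.30, limma adjusted p = 0.0226), lost its call after rescaling at 0.51 (limma adjusted p = 0.114; 0.00437 to 0.309 over 15 alternatives) and without UUO2 replicate 2 at 0.64.

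Within single libraries the ratio of Il1rn to Il1b was 0.0370 to 0.258 in sham and 7.38, 6.27, 4.38 and 3.47 in UUO2. All 4 UUO2 libraries, replicate 2 included, lay above every library of the other 5 groups. The ratio was 0.927 to 2.10 in UUO7, 0.755 to 1.54 in R1W, 0.609 to 1.05 in R2W and 0.351 to 0.698 in R4W, where Il1b was the more abundant per length in 4 of 4 R4W libraries. No test was run on the ratio.

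Il1r1, the signalling receptor, resembled Il6ra in its course. It was 0.96, 1.83, 1.16 and 1.31 FPKM in sham and 2.22, 1.90, 1.76 and 2.15 FPKM in UUO2, where the lowest library lay under the highest sham library, replicate 2. The small 2-day difference of 0.39 (SE 0.13, limma adjusted p = 0.0189) lost its call in 4 of 15 alternatives, among them the removal of sham replicate 1, at 0.31, sham replicate 3, at 0.36, or UUO2 replicate 1, at 0.35, and a pseudocount of 10, at 0.09 (limma adjusted p 0.00479 to 0.202 over the 15). In UUO7 it was 5.15, 6.54, 5.66 and 6.50 FPKM, clear of both groups, with a difference of 1.60 (SE 0.13, limma adjusted p = 1.24e-09) from sham and 1.21 (SE 0.13, limma adjusted p = 1.2e-07) from UUO2.

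Other IL-1 family genes were few in the table: 4 of 10 listed ligand genes had a row, Il1b and Il1rn among them, and Il1a and the Il36 genes are not analysed here. All 4 were called higher in UUO7, also after rescaling, against 60.1% of all genes before rescaling and 36.5% after. Il1b and Il1rn averaged under 1 FPKM in sham and have a row only because other groups were higher. Il33, an alarmin of the family, rose from 1.23 ± 0.164 FPKM in sham to 4.43 ± 1.68 in UUO2 and 11.7 ± 1.84 in UUO7, and Il18 was 2.44 ± 0.249, 2.82 ± 0.320 and 5.03 ± 0.557 FPKM. Of 7 receptor genes with a row among 9 listed, Il1r1 included, 5 were called higher and 1 lower in UUO7, or 5 and 2 after rescaling. The shares over all genes were 60.1% and 17.8%, or 36.5% in each direction after rescaling. The others called higher were Il18r1, Il1rl2, Il18bp and Il1rl1, by 1.98, 1.85, 1.41 and 1.24. Among them Il18r1, Il1rl2 and Il1rl1 were under 1 FPKM in every sham library and have a row only because other groups were higher. The one lower before rescaling was Sigirr, a family member that dampens signalling, at 57.9 ± 1.13 FPKM in sham and 45.4 ± 4.45 in UUO7. Il1rap, the accessory chain that IL-1 signalling needs, was 1.40 ± 0.117 and 1.5 ± 0.180 FPKM, and its difference of 0.06 (limma adjusted p = 0.582) turned to -0.23 with a call after rescaling (limma adjusted p = 0.0185). Sigirr and Il1rap were picked out once their values had been seen.

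Among 17 genes of IL-1 and NF-kB signalling 10 were called higher in UUO2 and 14 in UUO7, with 1 lower in UUO7. After rescaling UUO7 had 10 higher and 4 lower. Over all genes 32.3% were called higher in UUO2, and 60.1% higher and 17.8% lower in UUO7. After rescaling the UUO7 share was 36.5% in each direction. The 4 largest differences in UUO7 were in Nfkbiz, Relb, Nfkb2 and Tnfaip3. Nfkbiz, an atypical inhibitor-family protein, rose from 2.67 ± 0.486 FPKM in sham to 13.8 ± 5.90 in UUO2 and 28.6 ± 1.76 in UUO7, and Relb, a subunit, from 3.55 ± 1.08 to 15.6 ± 5.11 and 33.7 ± 3.29. Nfkb2 and Tnfaip3 rose by 2.54 and 2.19 in UUO7. Of 7 listed inflammasome genes 5 had a row, and Nlrp3 and Nlrc4 are not analysed here. All 5 were called higher in UUO7, also after rescaling, against 60.1% of all genes before rescaling and 36.5% after. Casp1 and Aim2 were under 1 FPKM in every sham library and have a row only because other groups were higher. Casp1, whose product cleaves the IL-1 beta precursor, was 0.26 to 0.45 FPKM in sham, 0.46 to 0.57 in UUO2 and 2.62 to 4.06 in UUO7, with a 2-day difference of 0.14 (limma adjusted p = 0.459) and a 7-day difference of 1.65. Gsdmd, the pore protein gasdermin D, was 1.93 ± 0.402, 3.29 ± 1.01 and 22.8 ± 1.22 FPKM in the same groups, and Casp4 was 1.11 ± 0.201, 2.80 ± 1.03 and 18.1 ± 1.79 FPKM.

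Il34 had the highest level of the 9 genes per length in UUO2 and UUO7. It was 17.8, 19.3, 16.5 and 24.0 FPKM in sham, 100, 34.3, 131 and 153 in UUO2 and 124, 104, 131 and 108 in UUO7. Every obstructed library was above sham, and UUO2 spread more widely than UUO7, with replicate 2 the lowest. The difference from sham was 2.19 (SE 0.29, limma adjusted p = 3.07e-06) in UUO2, 2.65 without UUO2 replicate 2, and 2.53 (SE 0.29, limma adjusted p = 8.09e-08) in UUO7. Between UUO7 and UUO2 it was 0.34 (SE 0.29) with a limma adjusted p of 0.301; the sign turned to -0.12 without UUO2 replicate 2 and to -0.01 after rescaling. With both changes together, a setting chosen after seeing the data, Il34 was lower in UUO7 than in UUO2 by -0.46 (limma adjusted p = 0.0151; 0.0151 to 0.986 over 16 alternatives) and Stat3 by -0.25 (limma adjusted p = 0.00755). Exons of Il34 overlap the antisense genes Gm15894 and Gm15895.

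The receptor and the second ligand of that axis moved differently at 2 days. Csf1r, the receptor, fell from 16.7 to 19.8 FPKM in sham to 6.34 to 9.81 in UUO2, a difference of -1.06 (SE 0.14, limma adjusted p = 3.05e-06), and was 34.2 to 45.5 in UUO7. Csf1, the other CSF1R ligand, was 2.48 ± 0.986 FPKM in sham, 9.07 ± 2.54 in UUO2 and 18.5 ± 0.937 in UUO7 (SD, n = 4), under the level of Il34 in each group. In R4W Csf1 was 16.1 ± 3.95 FPKM against 43.1 ± 7.96 for Il34.

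From 2 to 7 days of obstruction 7 of the 9 genes were called higher in UUO7 (6 after rescaling), all but Stat3 and Il34, where 52.0% of all genes were called higher and 30.0% after rescaling. Il1b had the largest of these differences. On reversal the 9 genes divided again. In R1W against UUO7, 1 gene was called, Il34, which was lower by -0.86 (SE 0.29, limma adjusted p = 0.0475), where 8.04% of all genes were called lower and 7.14% after rescaling. That call was lost in 9 of 15 alternatives (limma adjusted p 0.000588 to 0.116), although the direction was kept in all 15 and the 4 R1W libraries, at 63.8, 59.9, 75.4 and 55.9 FPKM, were all below UUO7. Osmr, Il6st, Stat3 and Socs3 also lay below UUO7 in all 4 R1W libraries without being called, as did 12.6% of all genes, called or not.

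At 4 weeks 6 genes were called lower than in UUO7, where 30.8% of all genes were called lower. Osmr, Socs3 and Il34 held this call in each of 16 alternatives and Il1rn in the 15 that tested it, whereas Il6st, at -0.32, lost it in 12 of 16 and Stat3, at -0.37, in 10 of 16, rescaling among them. After rescaling 4 were called, against 23.2% of all genes. Il34 in R4W was 41.8, 48.5, 49.7 and 32.3 FPKM, with a difference of -1.43 (SE 0.29, limma adjusted p = 0.000448) from UUO7. Socs3 in R4W was 16.0, 21.01, 20.1 and 11.3 FPKM, with a difference of -1.38 (SE 0.36, limma adjusted p = 0.00348). Osmr was 7.85, 12.0, 10.6 and 7.35 FPKM, with a difference of -0.90 (SE 0.25, limma adjusted p = 0.00631). Il1rn was 2.53, 2.66, 3.17 and 1.57 FPKM, with a difference of -1.12 (SE 0.30, limma adjusted p = 0.00418). All 4 genes lay below every UUO7 library, as did 31.3% of all genes, and above every sham library.

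**Figure D4:**
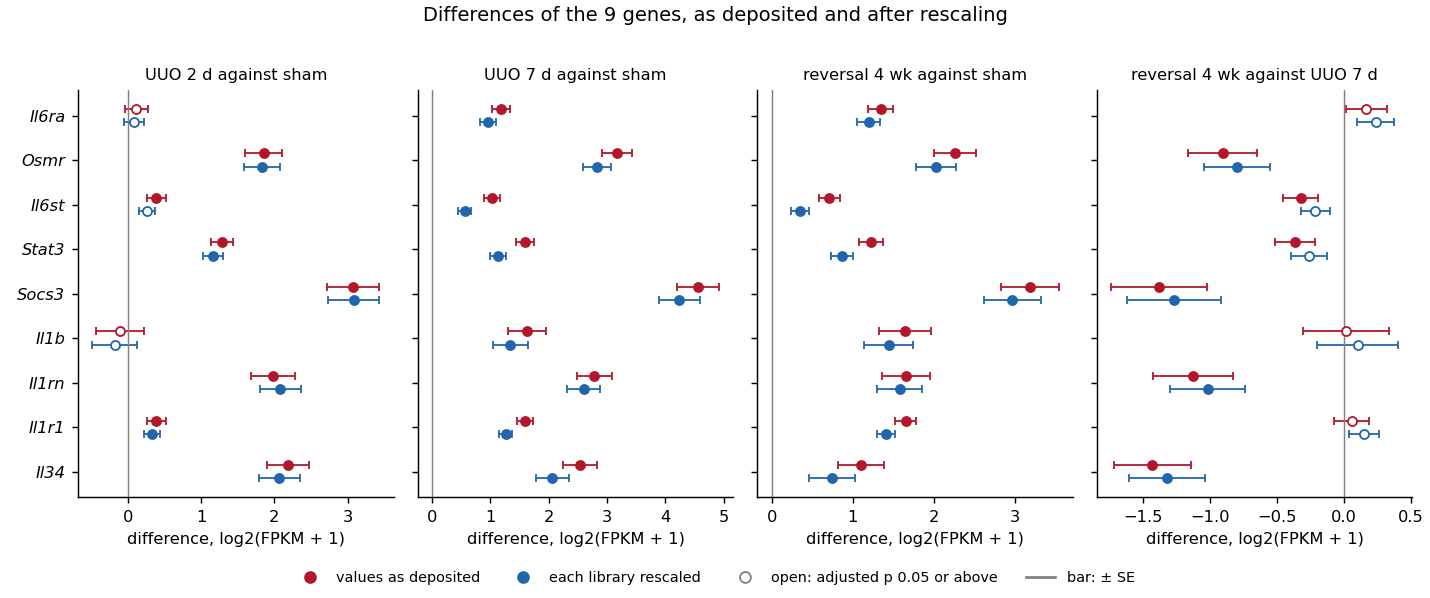
Difference of each of the 9 genes in log2(FPKM + 1) (horizontal axes) in 4 comparisons, as deposited (red) and after rescaling (blue), with SE bars; open circles have a limma adjusted p of 0.05 or above. In 4-week reversal against 7-day obstruction (UUO) Osmr, Socs3, Il1rn and Il34 were lower on both scales, and Il6ra, Il1b and Il1r1 were near 0.

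Il6ra, Il1b and Il1r1 were not called lower in R4W than in UUO7. Their differences between R4W and UUO7 were 0.17, 0.02 and 0.06, with limma adjusted p of 0.375, 0.974 and 0.738. Il1b in R4W was 3.98, 7.57, 6.27 and 2.25 FPKM, which spans the UUO7 range, and its difference was -0.19 without replicate 2, whose labels conflict. Il1r1 in R4W was 5.77, 6.24, 6.76 and 6.16 FPKM, a range that overlaps UUO7. Il1b was most variable in R2W, at 9.15, 2.20, 8.73 and 4.21 FPKM, where replicates 1 and 3 were high; Il1rn was highest in the same group in replicates 3 and 1, at 9.21 and 5.57 against 1.73 and 2.94. The same 2 libraries, replicates 1 and 3, had the highest marker sums of the group for neutrophils, at 34.8 and 45.7 FPKM against 6.11 and 11.2, and for macrophages, at 2128 and 1706 against 860 and 1092. Their sums were also the highest of the group for injured tubule, at 582 and 776 FPKM against 256 and 336. For fibroblasts they were 239.5 and 237 against 147 and 177. Lymphocyte, urothelial and endothelial sums were likewise highest there, and proximal tubule and distal nephron sums lowest. Podocyte and adipose sums did not follow this split. The part of these cell types in the R2W levels was not tested. Between R4W and R1W 0 of the 9 genes were called and 1 had an unadjusted limma p under 0.05, with 0 called after rescaling, where 19.1% of all genes were called in either direction and 17.3% after rescaling. Osmr, Socs3 and Il34 lay lower in all 4 R4W libraries than in R1W, at adjusted p of 0.103, 0.157 and 0.164, and were called in the fit without the UUO2 libraries. Of all genes 15.9% were lower in R4W than in R1W without overlap.

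At 4 weeks the differences from sham were still between 0.71 for Il6st and 3.18 for Socs3, and after rescaling between 0.35 and 2.97. Il34 was 2.22-fold sham and Il1r1 4.74-fold by ratio of means, or 1.71-fold and 3.68-fold after rescaling. With R4W replicate 2 placed in R2W or left out, the number of the 9 genes called higher than sham was still 9 in both groups.

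Marker sums of several cell types were higher in UUO7 and recovery than in sham and UUO2, as were Il6ra, Il1b and Il1r1. The sum over 8 macrophage markers (Adgre1, Cd68, Csf1r, Lyz2, Aif1, C1qa, C1qb and Itgam, all with a row) was 51.1 to 85.8 FPKM in sham, 90.4 to 204 in UUO2, 1003 to 1195 in UUO7, 1012 to 1439 in R1W, 860 to 2128 in R2W and 716 to 1422 in R4W. Of 7 neutrophil markers 3 had a row (S100a8, S100a9 and Csf3r), with sums of 0.99 to 1.53 FPKM in sham, 4.58 to 5.90 in UUO2, 10.9 to 17.3 in UUO7, 6.82 to 11.7 in R1W, 6.11 to 45.7 in R2W and 5.69 to 15.8 in R4W, where R4W overlapped UUO2. Of 7 lymphocyte markers 4 had a row, with sums of 0.70 to 0.81 FPKM in sham, 0.99 to 1.72 in UUO2, 5.02 to 8.32 in UUO7 and 8.16 to 18.7 in R4W. The 6 urothelial markers summed to 1.74 to 3.10 FPKM in 3 sham libraries and 39.5 in sham replicate 2, 0.55 to 3.82 in UUO2, 19.3 to 36.6 in UUO7 and 46.2 to 151 in R4W. The 4 endothelial markers summed to 41.1 to 75.8 FPKM in sham, 21.4 to 49.4 in UUO2, 112 to 126 in UUO7 and 102 to 124 in R4W. The 4 fibroblast markers summed to 23.2 to 56.2 FPKM in sham, 62.4 to 129 in UUO2, 256 to 301 in UUO7 and 136 to 236 in R4W. The 4 podocyte markers summed to 35.3 to 39.8 FPKM in sham, 8.91 to 27.6 in UUO2, 48.2 to 60.9 in UUO7 and 90.9 to 130.1 in R4W. The injured tubule markers were already high at 2 days, with sums of 5.27 to 20.99 FPKM in sham, 671 to 1123 in UUO2, 1369 to 1722 in UUO7 and 200 to 303 in R4W. The 6 proximal tubule markers summed to 5194 to 6209 FPKM in sham and 1350 to 1754 in UUO7. The part of these cell types in the changes of the 9 genes was not tested.

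Over the 24 libraries the genes whose log2(FPKM + 1) values were most like those of each of the 9, among the 9758 genes averaging 5 FPKM or more, are given as a description, since all genes share the groups. They were Tnfsf13b, Wfdc17 and Fgl2 for Il6ra (Pearson's r 0.974 to 0.978), Mpeg1, Setd7 and Casp12 for Il1r1 (0.983 to 0.984), and Arhgap4, Inpp5d and Prex1 for Il1b (0.944 to 0.951). They were Tuba1a, Nfkb1 and Dpysl3 for Osmr (0.988 to 0.995), Icam1, Tlr2 and Hspb8 for Stat3 (0.982 to 0.984), and Cd14, Pea15a and Tpm4 for Socs3 (0.986 to 0.989). For Il34 they were Bcl3, Apex1 and Ppp1r11 (0.967 to 0.975), for Il1rn Tes, Tubb5 and Lmnb1 (0.961 to 0.964), and for Il6st Rhbdf1, Sf3b3 and Akt1 (0.956 to 0.963). Among the 9 genes r was 0.986 between Osmr and Socs3 and 0.945 between Il6ra and Il1r1, and lowest, at 0.323, between Il1b and Il34.

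In the authors' deposited table, the log2 fold change of Socs3 was 4.08 in UUO2 and 4.99 in UUO7 against sham, with adjusted p of 1.72e-09 and 4.99e-34. Il1rn had larger log2 fold changes than Socs3 in all 5 comparisons with sham in the authors' deposited table, 6.31 in UUO2, 6.93 in UUO7, 5.84 in R1W, 6.40 in R2W and 5.49 in R4W. In the authors' deposited table, Il6ra and Il1b had adjusted p of 0.145 and 0.491 in UUO2 against sham. For Il6st in UUO2 and R1W against sham, the authors' deposited table gives adjusted p of 0.118 and 0.326. The authors' deposited table, comparing R1W with UUO7, lists 5 of the 9 genes as lower with an adjusted p under 0.05: Osmr, Stat3, Socs3, Il1rn and Il34. Their log2 fold changes in the authors' deposited table were -0.31, -0.33, -0.66, -1.10 and -0.84, with adjusted p of 0.0154, 1.23e-06, 1.49e-07, 3.38e-06 and 1.25e-15. In UUO7 against UUO2, Il6st and Socs3, called higher by limma, had adjusted p of 0.127 and 0.128 in the authors' deposited table. In R4W against R1W, where limma called none of the 9 genes, Osmr and Socs3 were lower in the authors' deposited table, by -0.59 and -0.67 with adjusted p of 0.00266 and 0.00344. For R4W against UUO7 the authors' deposited table has Il6st and Stat3 lower, by -0.12 and -0.42 with adjusted p of 0.0276 and 6.98e-08. Osmr, Socs3, Il1rn and Il34 were lower there too, each with an adjusted p under 0.05 in the authors' deposited table.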

How the data were processed

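Kidney RNA of 24 mice in 6 groups of 4 was compared. The authors' deposited table holds 1 normalized value per gene and library. Its header names no unit. The values that the authors deposited were read as FPKM, fragment counts scaled by transcript length and library size, because low values fall on steps of whole fragments scaled by gene length in 20 of 24 libraries. That step search was given its final form after a first form found none, and it read no depth in UUO2, where the depth is unknown. Per the submitters' processing notes, FastQC, RSEM, Bowtie2 and DESeq2 were used with mm10, without versions or roles; whether counting used the strand is not given in the sources used here. The authors' deposited log2 fold changes and adjusted p-values were used for comparison only. Implied depth was 25180000 to 35270000 fragments, and intervals for counting error were not computed.

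Differences were fitted on log2(FPKM + 1) with limma 3.58.1 (R 4.3.3; lmFit, eBayes with trend) over all 14785 genes and 24 libraries, with 1 coefficient per group and 9 comparisons. P-values were adjusted by Benjamini-Hochberg over all genes, and called under 0.05. Per the labels each library came from its own animal, so the p-values measure the spread between these animals. Samples were grouped by title. No column was left unmatched and no further filter on low values was applied. The lowest gene mean in the authors' deposited table was 1. Genes averaging under 1 FPKM in sham therefore have a row only through groups where they are higher. In simulated data for UUO7 against sham (14785 genes), 96 of 100 genes changed by 1 on the log2 scale and 98 of 100 changed by 2 were found, with 13 false calls. Noise was normal, and the 200 changed genes were taken from those above 1 on log2(FPKM + 1) in sham. In the data 77.9% of genes were called in this comparison, and Il6ra, Il1b and Il1rn lay under that sham level. These rates therefore do not describe such genes or so broad a shift. Ratios, promoter matches and figures used Python 3.11.15, numpy 2.4.6, pandas 2.3.3 and matplotlib 3.10.9.

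The 9 genes and the lists were chosen with earlier results of these data known. Beyond the 9 genes, named genes were up to 4 per list with the largest absolute difference among those called in UUO7 against sham, and for each of the 9 genes the 3 with the highest Pearson's r over the libraries. Of the genes so named, 2 are not reported here; list counts include them. Alternatives were rescaling, pseudocounts of 0.1 and 10, a minimum mean of 5, fits to only the groups compared or without UUO2, a replicate block, R4W replicate 2 placed in R2W, and each replicate left out. A further 2 combinations that leave out sham or UUO2 replicate 2 were added after seeing the data.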

Additional observations from a re-analysis of the deposited data

Results flagged for a closer look

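In the 54 groups of 4 values (9 genes in 6 groups), the most extreme library was checked against Dixon's 95% critical value, and 2 groups passed it, where chance gives about 2.7. Stat3 in UUO2 replicate 2 was 27.23 FPKM, far below the other 3 UUO2 libraries at 49.6 to 51.5 FPKM. Socs3 in sham replicate 2 was 2.09 FPKM, far above the other 3 sham libraries at 0.56 to 0.72 FPKM. Without UUO2 replicate 2 the difference of Stat3 from sham was 1.5, and without sham replicate 2 that of Socs3 was 3.30, both with the same call.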

How the results depend on the processing

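Of 1269 values of the 9 genes recomputed under another setting, 1190 kept their direction and their side of the threshold, 46 lost a call, 12 gained one and 21 changed sign. With a minimum mean of 5, 5 of the 9 genes were tested, and the numbers called became 5 in UUO7, R1W, R2W and R4W against sham and 3 in UUO7 against UUO2, since fewer genes were tested. In R1W against UUO7 the number called was 0 after rescaling, 0 with a pseudocount of 0.1, 4 with only the 2 groups fitted, 2 without the UUO2 libraries and 0 to 1 with a replicate left out. In R4W against R1W it was 1 with a pseudocount of 10 and 3 without the UUO2 libraries; the cause was not tested. With a replicate left out it was 5 to 7 in UUO2 against sham, 6 to 8 in UUO7 against UUO2 and 4 to 5 in R4W against UUO7, and did not move in the other comparisons with sham or in R4W against R1W.

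Most sign changes were in differences near 0. Il1b in UUO2 against sham became 0.00041 without UUO2 replicate 2 and 0.024 without sham replicate 2 as well. In UUO7 against UUO2, Stat3 became -0.035 after rescaling and -0.25 with UUO2 replicate 2 also left out, and Il34 became -0.0066 after rescaling, -0.12 without UUO2 replicate 2 (with or without sham replicate 2) and -0.46 with both changes. Il6ra in R1W against UUO7 became -0.033 without R1W replicate 3. Il1b in R4W against UUO7 became -0.19 with R4W replicate 2 placed in R2W or left out, -0.065 and -0.11 without UUO7 replicates 1 and 3, and -0.11 without R4W replicate 3. In R4W against R1W, Stat3 became 0.0076 after rescaling and 0.020 without R4W replicate 4, Il6ra -0.0040 with R4W replicate 2 placed in R2W or left out and -0.024 without R1W replicate 1, and Il6st -0.035 and -0.015 without R1W replicates 3 and 4.

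Replicate numbers did not pair the animals: mean correlations of same-numbered deviations were -0.17 to 0.15, and in no comparison were all 4 over 0.1. With a replicate block 7, 9, 9, 9 and 9 genes were called against sham in UUO2, UUO7, R1W, R2W and R4W, 7 in UUO7 against UUO2, 1 in R1W against UUO7, 4 in R4W against UUO7 and 0 in R4W against R1W. With a replicate left out, the differences that changed sign ranged from -0.23 to 0.00041 for Il1b in UUO2 against sham, -0.12 to 0.59 for Il34 in UUO7 against UUO2, -0.033 to 0.19 for Il6ra in R1W against UUO7, -0.19 to 0.28 for Il1b in R4W against UUO7, and in R4W against R1W from -0.024 to 0.20 for Il6ra, -0.035 to 0.12 for Il6st and up to 0.020 for Stat3. Depth limits Il1rn in sham, at about 1 to 10 fragments, and Il1b in sham, at 11 to 24.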
